A study of Homo sapiens with 9 samples.

Results

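SERPINA1 and 8 further serpins measured in a squamous carcinoma cell line were followed across CRISPR-edited and control cells. The 9 genes are SERPINA1, SERPINA3, SERPINB1, SERPINB3, SERPINB4, SERPINB5, SERPINB7, SERPINB13 and SERPINH1. They were chosen by name, as SERPINA1 and the serpins made by epithelial cells, after SERPINA1 had been seen to be high in all 3 knockout groups. They are 9 of the 78894 gene identifiers in the deposited tables, and 9 of 9 passed the filter on low values. RNA came from CAL27, an established line of tongue squamous carcinoma cells, and the series is about an enhancer in head and neck cancer. The labels list Control cells (3 samples) and the knockout groups A2ko, A8ko and C9ko (2 samples each), all CAL27 in the same medium with no added treatment. They give neither the edited sequence nor the guide, nor whether the cells of a group are clonal, so no targeted gene could be checked.

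Serpins are proteins of a common fold, most of which trap proteases. An inhibitory serpin offers an exposed loop as bait, is cut there, and then changes shape and holds the protease in a covalent complex. The A group is mostly secreted, and SERPINA1 and SERPINA3 are acute-phase proteins of plasma made largely by liver. The B group mostly stays inside cells, and several of its genes lie in a cluster on chromosome 18 and are expressed in squamous epithelia. SERPINH1 has lost inhibition and serves as a collagen chaperone in the endoplasmic reticulum.

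The 2 A2ko tables were identical to each other, as were the 2 A8ko tables, so each pair was taken as 1 library. This left 7 distinct libraries, namely 3 Control, 1 A2ko, 1 A8ko and 2 C9ko. A2ko and A8ko values therefore have no replicates and carry no p-value. Values are TPM, a share of each library's transcripts corrected for gene length, so the depth behind them is unknown. Differences are on the log2(TPM + 1) scale, which understates changes of low genes. For C9ko they were tested with limma on 17100 genes with Benjamini-Hochberg adjustment. Because the labels do not say that samples came from separate cultures, p-values measure the spread between these samples, which may be technical. In bulk RNA, fewer cells of a type and less RNA per cell cannot be told apart.

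The epithelial label was checked on marker genes. All 8 squamous markers were detected, and their summed level was 16566 to 17638 TPM in Control, 6629 in A2ko, 7707 in A8ko, with 10141 and 10292 in C9ko. Hepatocyte markers, which mark the main source of SERPINA1 in the body, were absent or nearly so. ALB, APOA1, APOB, TTR and FGB were at 0 in every library, and the summed level of all 6 stayed at or below 0.282 TPM. The fibroblast list summed to 10.8 to 12.2 TPM in Control, 17.7 in A2ko, 7.36 in A8ko, with 11.02 and 11.8 in C9ko, with COL3A1 at 0. The 6 immune markers summed to 15.1 to 18.95 TPM in Control, 25.1 in A2ko, 17.5 in A8ko, with 52.4 and 54.1 in C9ko, nearly all of it CD14, while the pan-leukocyte gene PTPRC stayed at or below 0.0232. The 4 endothelial markers summed to 3.51 to 4.55 TPM in Control, 12.8 in A2ko, 8.63 in A8ko, with 22.2 and 30.1 in C9ko, nearly all of it CDH5, with KDR at 0. The lower squamous sums of the knockouts lay mostly in the keratins KRT5, KRT14 and KRT6A. Other squamous markers were not all lower. SFN reached 1246 TPM in A8ko and 1270 and 1361 in C9ko against at most 1156 in Control, TP63 was at 307.6 and 312.8 in C9ko against at most 296.2, and KRT17 at 1749 in A2ko against at most 1243. Elsewhere the same genes were below every Control library, SFN (694.3) and TP63 (194) in A2ko and KRT17 (489.4) in A8ko. DSG3 was lower in every knockout, at 21.95 TPM in A2ko, 11.3 in A8ko, with 16.6 and 18.2 in C9ko, against 34.7 to 39 in Control. PERP was below Control (at least 361.3) in A2ko (328.1) and A8ko (335.1). The squamous sum was lower in every knockout and the CD14 and CDH5 levels were highest in C9ko, and their part in the serpin differences below was not tested. Mitochondrial transcripts made up 23.1% to 26.9% of TPM for Control, 25.2% for A2ko and 20.6% for A8ko, with 20.2% and 17.9% in C9ko. Rescaling without them left the C9ko calls of the members at 2 higher and 4 lower.

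In Control cells the members spanned a wide range of levels. SERPINH1 was highest at 206.4 ± 19.5 TPM (SD, n = 3), followed by SERPINB1 at 163.2 ± 5.40, SERPINB13 at 98.1 ± 4.16 and SERPINB5 at 79.0 ± 2.94. SERPINB3 (35.9 ± 0.809) and SERPINB4 (20.3 ± 0.327) were intermediate. SERPINA3 (7.96 ± 0.956), SERPINB7 (4.76 ± 0.515) and SERPINA1 (2.05 ± 0.502) were lowest. No neighbours in this order overlapped between Control libraries. SERPINH1 exceeded 96.4% of the tested genes and SERPINA1 exceeded 22.1%. The 9 members summed to 591.5 to 633.9 TPM in Control, 558.9 in A2ko, 418.9 in A8ko, with 594.7 and 633.7 in C9ko. The A8ko sum was thus the lowest, and the C9ko sums lay within the Control range.

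**Figure D1:**
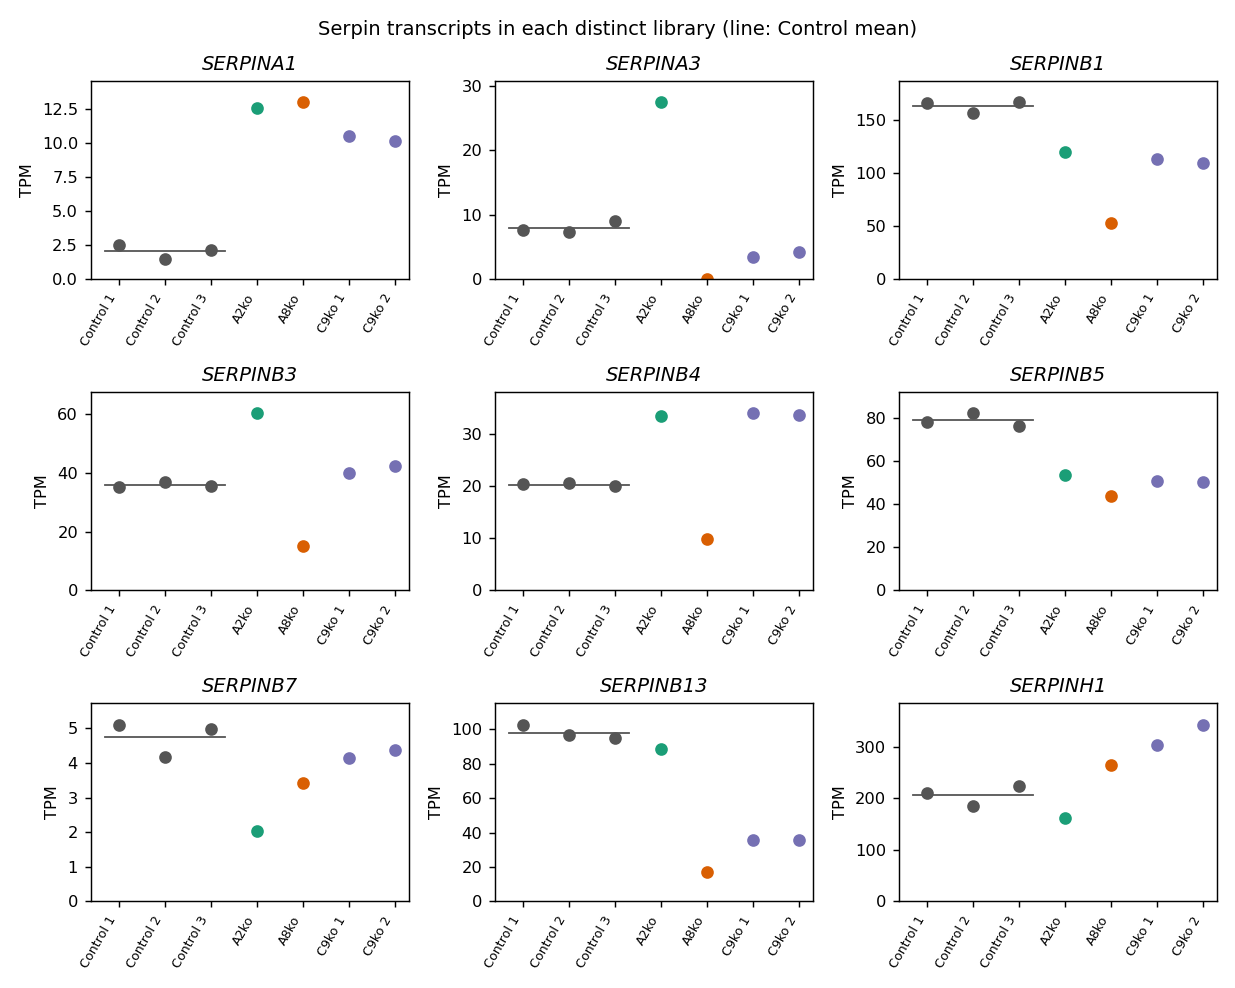
TPM of each of the 9 serpins (y axis, a separate linear scale per gene, starting at 0) in the 7 distinct libraries (x axis), with a line at the Control mean. SERPINA1 is above Control in all 4 knockout libraries, SERPINB1, SERPINB5 and SERPINB13 are below it in all 4, and SERPINA3, SERPINB3, SERPINB4 and SERPINH1 lie on different sides of it in different knockouts.

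Among the secreted protease inhibitors, SERPINA1 encodes alpha-1 antitrypsin, the main plasma inhibitor of neutrophil elastase. The gene (ENSG00000197249) lies at chr14:94376747-94390693 on the minus strand of GRCh38. Its level was 2.51, 1.51 and 2.12 TPM in Control, 12.6 in A2ko, 13.0 in A8ko, with 10.5 and 10.1 in C9ko. The 4 knockout libraries lay close together and above all Control libraries. The ratio to the Control mean was 6.15 for A2ko, 6.35 for A8ko and 5.04 for C9ko, or 2.17, 2.21 and 1.91 on the log2(TPM + 1) scale. SERPINA1 was the only member above every Control library in every knockout library, in the 3 comparisons, which share the Control libraries. Since this difference led to the choice of the gene, it is given without a test. Its level in the knockouts was still under that of SERPINB3 or SERPINB5 in the same libraries.

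SERPINA3 encodes alpha-1 antichymotrypsin, an acute-phase inhibitor of cathepsin G and mast cell chymase. The gene (ENSG00000196136) is in the same serpin cluster, at chr14:94612377-94624055 on the plus strand, 221684 bases from SERPINA1. Its level was 7.59, 7.24 and 9.04 TPM in Control, 27.4 in A2ko, 0.00177 in A8ko, with 3.49 and 4.13 in C9ko. Unlike SERPINA1, it was high in A2ko, almost absent in A8ko and lower in C9ko, with no overlap with Control in any of these. In A2ko the ratio to Control was 3.45 (1.67 log2 units). In C9ko SERPINA3 fell by 0.89 log2 units (limma SE 0.122, adjusted p = 0.00216).

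A second gene model, ENSG00000273259, spans the same stretch on the same strand (chr14:94592058-94624646), and reads there may be assigned to either. That model had 0.331 TPM in A8ko and at most 0.0104 in the other libraries. The sum of both, formed after the values were seen, was 0.333 TPM in A8ko against 7.96 ± 0.962 (SD, n = 3) in Control, a 23.9-fold lower level (-2.74 log2 units in place of -3.16). With a pseudocount of 0.1 the A8ko difference of SERPINA3 alone was -6.30, so its size depends on that choice. The low level in A8ko was present in the sum as well.

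To show what lies before these members with unlike patterns, their upstream sequences were read from RefSeq (GRCh38.p14), without exonic bases. Both are given 5′ to 3′ on the gene's strand, SERPINA1 at chr14:94390694-94390885 (minus) and SERPINA3 at chr14:94612141-94612376 (plus), in lower case because no searched motif was found in either.
SERPINA1: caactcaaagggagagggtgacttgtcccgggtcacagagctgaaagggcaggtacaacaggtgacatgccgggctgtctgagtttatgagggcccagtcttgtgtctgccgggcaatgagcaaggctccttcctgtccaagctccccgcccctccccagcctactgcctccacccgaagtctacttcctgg
SERPINA3: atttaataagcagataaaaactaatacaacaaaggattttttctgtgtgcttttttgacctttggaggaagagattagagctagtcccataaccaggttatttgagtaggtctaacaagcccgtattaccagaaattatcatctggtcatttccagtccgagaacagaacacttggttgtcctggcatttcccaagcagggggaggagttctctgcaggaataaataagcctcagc
SERPINA1 has another annotated start, whose window left no stretch outside exons to print, and which start these cells use was not tested. Motifs of binding factors were searched on both strands in the 250 bases before each start, in 13 windows of the 9 members. They were NF-kB, STAT (TTCNNNGAA), AP-1 (TGANTCA), C/EBP (TTGCNNAA), the heat shock element (GAANNTTC) and the TATA box (TATAAA). The windows of SERPINA1, SERPINA3, SERPINB3 and SERPINB4 held no match to these letters. SERPINB1 had a STAT match 208 to 200 bases before its start, a motif found in 6.57% of 35116 promoter windows. SERPINB13 had an AP-1 match 87 to 81 bases before its start and SERPINB5 one at 146 to 140, and AP-1 was also in 6.57% of windows. Both lay past the start of an annotated exon, since the search, unlike the printed sequences, took in exonic bases. SERPINH1 had an NF-kB match at 239 to 230 (9.96% of windows) and a heat shock element at 71 to 64 (5.78%), the latter also past an exon start. C/EBP matches, found in 9.05% of windows, were in none of the members. The 3 windows of SERPINB7 held matches to NF-kB, STAT, AP-1, the heat shock element and the TATA box (10.7% of windows), of which a STAT and a heat shock match overlapped. That overlapping pair and an AP-1 match at 39 to 33 lay past an exon start as well.

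SERPINB3 and SERPINB4 encode the squamous cell carcinoma antigens, near-identical copies, of which the first inhibits cysteine cathepsins and the second chymotrypsin-like serine proteases. They lie side by side on the minus strand of chromosome 18, SERPINB4 (ENSG00000206073) at chr18:63637259-63644298 and SERPINB3 (ENSG00000057149) at chr18:63655197-63661963. Of the 31-base stretches in the SERPINB3 transcript, 691 of 1747 (39.6%) also occurred in SERPINB4, which is 40.2% of the 1719 in SERPINB4. The authors' counting could divide shared reads between the copies in ways not given in the sources used here, so the split between them is uncertain. SERPINB11, which overlaps SERPINB3 on the other strand, was at 0 in every library. The likeness extends upstream. The stretches at chr18:63661964-63662143 (SERPINB3) and chr18:63644327-63644506 (SERPINB4), both on the minus strand of GRCh38.p14 and printed to show how near the copies are, were 99.4% identical over 180 bases. The capital marks their 1 difference, G126A from SERPINB3 to SERPINB4, counted from 1 at the 5′ end and 125 bases before the start.
SERPINB3: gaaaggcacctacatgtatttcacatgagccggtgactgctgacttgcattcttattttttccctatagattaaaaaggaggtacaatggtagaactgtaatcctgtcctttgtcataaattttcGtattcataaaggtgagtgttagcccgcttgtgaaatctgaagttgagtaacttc
SERPINB4: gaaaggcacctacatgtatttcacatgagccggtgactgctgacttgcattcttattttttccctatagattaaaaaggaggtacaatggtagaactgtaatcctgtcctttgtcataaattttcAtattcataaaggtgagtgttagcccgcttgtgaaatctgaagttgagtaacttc

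SERPINB3 gave 35.3, 36.8 and 35.7 TPM in Control, 60.3 in A2ko, 15.0 in A8ko, with 40.0 and 42.4 in C9ko. SERPINB4 gave 20.3, 20.6 and 19.9 TPM in Control, 33.4 in A2ko, 9.76 in A8ko, with 33.9 and 33.6 in C9ko. Both were above every Control library in A2ko and C9ko and below them in A8ko. In A2ko they differed from Control by almost the same amount, 0.73 log2 units for SERPINB3 and 0.69 for SERPINB4, and in A8ko by -1.21 and -0.98. In C9ko SERPINB4 rose by 0.71 log2 units (limma SE 0.0628, adjusted p = 0.000343). SERPINB3 did not pass the test there, with a difference of 0.19 (limma SE 0.0636, adjusted p = 0.0638).

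As the copies share sequence, their sum was also taken, which depends less on that split. If shared reads were left out of the counting, the sum would be affected too, and the sources used here do not say. The sum was 55.6, 57.4 and 55.6 TPM in Control, 93.7 in A2ko, 24.7 in A8ko, with 73.9 and 75.9 in C9ko. The sum differed from Control by 0.73 in A2ko, -1.15 in A8ko and 0.41 in C9ko on the log2(TPM + 1) scale. Its highest group was A2ko, as for SERPINB3, while SERPINB4 was about as high in C9ko as in A2ko. SERPINB4 made up 35.8% to 36.5% of the sum in Control, 35.6% in A2ko and 39.5% in A8ko, but 45.9% and 44.2% in C9ko. The SERPINB4 difference in C9ko was therefore larger than that of the sum, by more than 1.5 times.

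**Figure D2:**
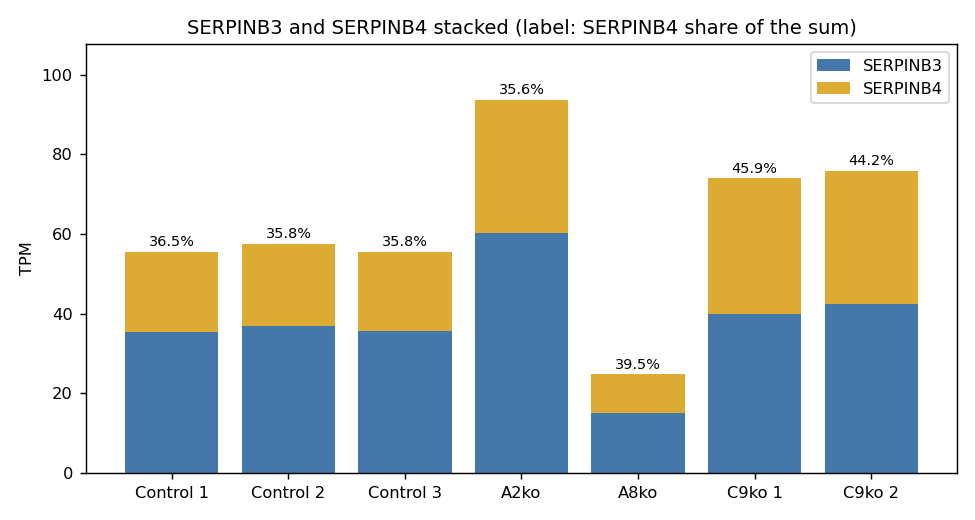
TPM of SERPINB3 and SERPINB4 stacked (y axis, from 0) in the 7 distinct libraries (x axis), with the SERPINB4 share of the sum printed above each bar. The sum is 93.7 TPM in A2ko and 24.7 in A8ko against 55.6 to 57.4 in Control, and the SERPINB4 share is highest in the 2 C9ko libraries.

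SERPINB13, headpin, an inhibitor of the lysosomal cathepsins L and K that is expressed in squamous epithelium, had the largest fall of the tested members in C9ko. The gene (ENSG00000197641) lies at chr18:63586989-63604639 on the plus strand. Its level was 103, 96.5 and 94.9 TPM in Control, 88.3 in A2ko, 16.8 in A8ko, with 35.6 and 35.8 in C9ko. The A8ko and C9ko libraries stood far below Control, while A2ko was only just below the lowest Control library. SERPINB13 fell by 1.43 log2 units in C9ko (limma SE 0.0636, adjusted p = 2.58e-05), to a level 2.75-fold lower in TPM. The difference was -2.47 in A8ko and -0.15 in A2ko, the latter -0.31 after median-of-ratios scaling.

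SERPINB1, an intracellular inhibitor of neutrophil elastase and cathepsin G, lies apart from the cluster at chr6:2832332-2842006 (ENSG00000021355, minus strand). It gave 165.8, 157.0 and 166.8 TPM in Control, 119.6 in A2ko, 52.7 in A8ko, with 113.3 and 109.6 in C9ko. All knockout libraries were below all Control libraries, and A8ko was the lowest, 3.10-fold under the Control mean. SERPINB1 fell by 0.55 log2 units in C9ko (limma SE 0.0608, adjusted p = 0.000892), and the differences in A2ko and A8ko were -0.44 and -1.61.

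SERPINB5, known as maspin, has the serpin fold but does not inhibit proteases, and is expressed in mammary and squamous epithelium. The gene (ENSG00000206075) lies at chr18:63476761-63505085 on the plus strand and holds a pseudogene and an intronic transcript on the same strand. It gave 78.3, 82.2 and 76.5 TPM in Control, 53.4 in A2ko, 43.9 in A8ko, with 51.0 and 50.3 in C9ko. The 4 knockout libraries were near one another and below all Control libraries. SERPINB5 fell by 0.63 log2 units in C9ko (limma SE 0.0619, adjusted p = 0.000534), beside differences of -0.56 in A2ko and -0.83 in A8ko.

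SERPINB7, megsin, a serpin of the upper epidermis whose loss causes a hereditary palmoplantar keratosis, was the lowest of the B members in Control. The gene (ENSG00000166396) lies at chr18:63752935-63805376 on the plus strand. It gave 5.11, 4.16 and 4.99 TPM in Control, 2.02 in A2ko, 3.43 in A8ko, with 4.14 and 4.38 in C9ko. A2ko and A8ko were below the Control libraries, by -0.92 and -0.37 log2 units, and C9ko overlapped them. SERPINB7 did not pass the test in C9ko (difference -0.13, limma SE 0.115, adjusted p = 0.447).

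SERPINH1, the collagen chaperone also called HSP47, is at chr11:75562056-75572783 (ENSG00000149257, plus strand). It gave 209.6, 185.5 and 224.0 TPM in Control, 161.8 in A2ko, 264.4 in A8ko, with 302.8 and 343.5 in C9ko. A2ko was below every Control library (-0.35 log2 units), whereas A8ko (0.36) and C9ko were above. SERPINH1 rose by 0.65 log2 units in C9ko (limma SE 0.0989, adjusted p = 0.00354). This call was lost when no filter on low values was applied (adjusted p = 0.0536).

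**Figure D3:**
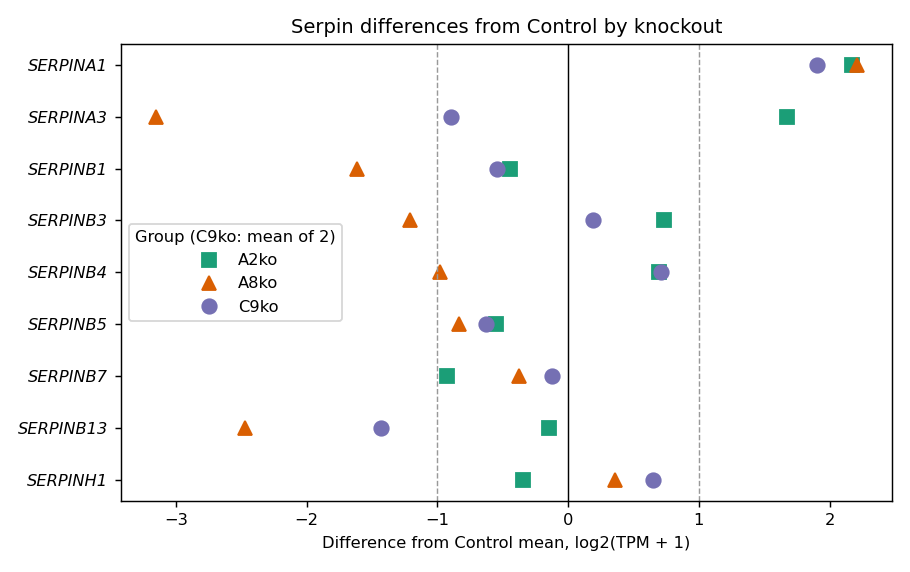
Difference of each serpin from the Control mean on the log2(TPM + 1) scale (x axis) for A2ko and A8ko (1 library each) and C9ko (mean of 2 libraries), with dashed lines at 1 log2 unit either way. SERPINA1 lies between 1.91 and 2.21 in all 3 groups, and SERPINA3 runs from -3.16 in A8ko to 1.67 in A2ko.

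By count, 6 of the 8 members tested in C9ko passed the test, where 29.5% of all genes did. SERPINB4 and SERPINH1 rose, against 22% of all genes called higher, and SERPINA3, SERPINB1, SERPINB5 and SERPINB13 fell, against 7.42% called lower. Higher genes were 74.8% of all C9ko calls, and 56.3% after median-of-ratios scaling, whereas the members kept 2 higher and 4 lower calls under both scalings. In A2ko, SERPINA1 and SERPINA3 were above the Control range and at least 1 log2 unit from its mean, as were 3.54% of all genes, and 0 members were as far below, against 1.53%. This 0 turns on SERPINB7, whose A2ko difference of -0.92 became -1.19 with a pseudocount of 0.1, -1.05 after median-of-ratios scaling and -1.001 without Control replicate 2, each past 1 log2 unit. In A8ko, SERPINA1 was as far above (2.05% of all genes), and SERPINA3, SERPINB1, SERPINB3 and SERPINB13 were as far below (2.68%). SERPINB4, at -0.98, joined them with a pseudocount of 0.1 (-1.045) and after rescaling by the median of ratios (-1.06) or without mitochondrial genes (-1.065). Held against the other 2 in the same way, each Control library had 0 members and 0.614% to 0.661% of all genes beyond that distance, so the 0 says nothing particular about the members. The 4 knockout libraries were all above the 3 Control libraries for 1 member, SERPINA1 (17% of all genes), and all below them for 3 members, SERPINB1, SERPINB5 and SERPINB13 (4.61%). The members' median difference was -0.15 for A2ko, -0.98 for A8ko and -0.13 for C9ko, beside 0.12, 0.09 and 0.11 over all tested genes. The members were chosen with such results known, so these shares are descriptions. Median-of-ratios scaling moved the median of all genes to -0.03, 0.02 and 0.00, and changed the sign of no member's difference in any knockout.

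Of 25 other serpins, 8 passed the filter on low values, and 2 of these were called in C9ko. As 29.5% of all genes were called there, this count says nothing particular about them. SERPINB6, an intracellular inhibitor, rose by 0.34 (limma adjusted p = 0.0131), and SERPINF1, the anti-angiogenic factor PEDF, fell by 0.62 (limma adjusted p = 0.000981). None of the 25 was beyond 1 log2 unit from Control in all 3 knockouts. Chosen after its values were seen, SERPINB2, which borders the chromosome 18 members, gave 3.03, 2.56 and 3.09 TPM in Control, 0.290 in A2ko, 0.531 in A8ko, with 3.55 in both C9ko libraries. It was thus low in A2ko and A8ko alone among the knockouts. SERPINE2 (1.35 log2 units) was also beyond that distance in A2ko, and SERPINB9 (-1.20) in A8ko. SERPING1, which did not pass the filter, was at 9.99 TPM in A2ko against a Control mean of 0.718. The median difference of the 8 other serpins was 0.14 for A2ko, -0.33 for A8ko and 0.11 for C9ko, nearer to that of all genes than the members' was in A8ko.

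**Figure D4:**
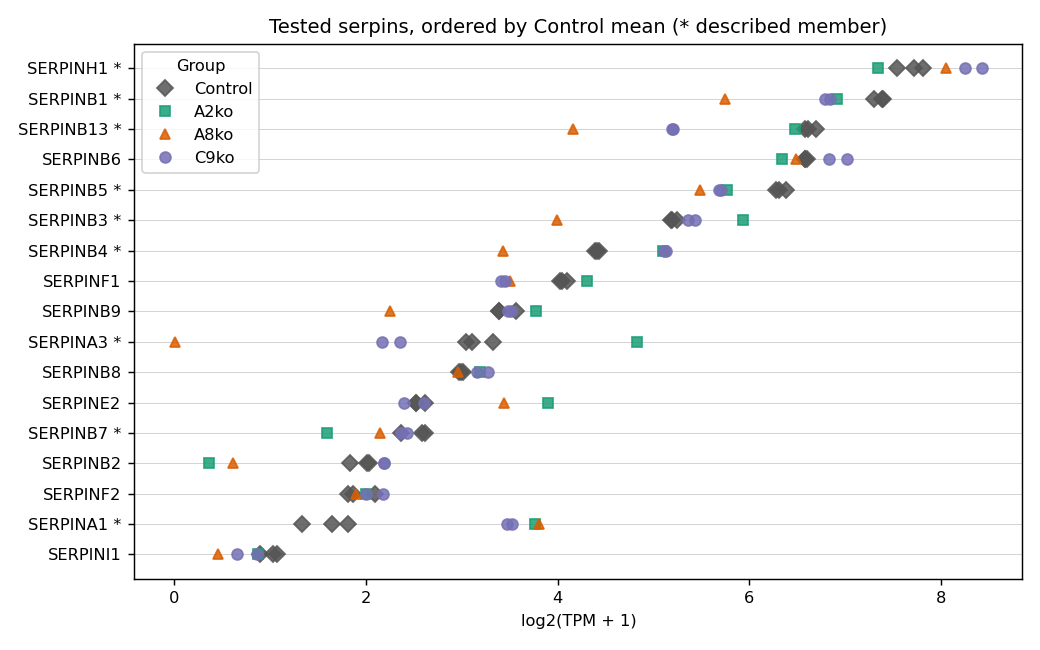
Level of the 9 members and the 8 other serpins that passed the filter, on the log2(TPM + 1) scale (x axis), ordered by their Control mean, with 1 symbol per distinct library and an asterisk beside the 9 members. SERPINA1 is below SERPINB2 and SERPINB7 in the Control libraries and above both in all knockout libraries.

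The proteases that the members are known to inhibit were set beside them. ELANE, PRTN3, CTSG, CMA1 and KLK3, the secretory granule and prostate enzymes on the list of 11, were listed at 0 in every library. Of the 6 that passed the filter, 3 rose in C9ko and 0 fell, where 22% of all genes were called higher and 7.42% lower. CTSS, the lysosomal cathepsin S, rose from 5.71, 6.34 and 6.56 TPM in Control to 18.9 and 17.99 (1.44 log2 units, limma SE 0.0884, adjusted p = 8.43e-05), while A2ko was at 5.38 and A8ko at 7.70. KLK5, a kallikrein of skin desquamation, rose by 0.88 (limma adjusted p = 0.000204), and CTSL, a target of SERPINB13, by 0.44 (limma adjusted p = 0.0183). KLK5 was, however, below Control (383.9 to 417.3 TPM) in A2ko (328.8) and A8ko (275.4). KLK7, a further kallikrein on the list, was not called in C9ko (limma adjusted p = 0.0724). It gave 14.06 to 18.65 TPM in Control, 10.3 in A2ko and 5.15 in A8ko. CTSL gave 61.7 to 67.4 TPM in Control, 84.8 in A2ko, 73.3 in A8ko, with 78.7 and 98.7 in C9ko. CTSL was thus above every Control library in all knockout libraries, and SERPINB13 was below every Control library in the same ones. Of all genes, 17% were above in this way and 4.61% below. CTSK, also a target of SERPINB13, gave 2.28 to 2.35 TPM in Control, 3.76 in A2ko, 2.54 in A8ko, with 2.44 and 1.61 in C9ko. It was not called in C9ko (limma adjusted p = 0.487).

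SERPINA1 and SERPINA3 are acute-phase genes that IL-6 family cytokines act on through STAT3 and C/EBP factors. Of 15 genes of this signalling, 12 passed the filter, and 9 rose in C9ko with 0 lower (8 after median-of-ratios scaling). With the deposited values, 22% of all genes were called higher and 7.42% lower. IL6 rose from 12.1, 14.1 and 12.9 TPM in Control to 109.7 and 121.5 in C9ko (3.06 log2 units, limma SE 0.0848, adjusted p = 7.05e-06), and was at 17.6 in A2ko and 130.5 in A8ko. LIF, a cytokine of the same family, rose by 1.79 (limma adjusted p = 2.79e-05) and gave 10.96 to 12.5 TPM in Control, 14.3 in A2ko, 44.6 in A8ko, with 41.8 and 45.2 in C9ko. IL6 and LIF were far higher in A8ko and C9ko than in A2ko, and SERPINA1 was at 10.1 to 13.0 TPM in all of them. SERPINA3 was above Control in A2ko (27.4 TPM) and below it in A8ko (0.00177) and C9ko (3.49 and 4.13). A link between these cytokines and either serpin was not tested. Of the 12 genes, 7 were above every Control library in every knockout library, as were SERPINA1 and 17% of all genes. IL6 and LIF were among the 7. OSMR, for example, gave 42.2 to 45.2 TPM in Control, 72.3 in A2ko, 66.5 in A8ko, with 95.5 and 94.2 in C9ko. SOCS3, a feedback inhibitor of this signalling chosen after its values were seen, gave 26.1 to 29.96 TPM in Control, 54.4 in A2ko, 57.9 in A8ko, with 37.0 and 37.2 in C9ko. The receptor subunits OSMR and IL6ST rose by 1.11 (limma adjusted p = 5.88e-05) and 0.84 (limma adjusted p = 0.000342), and the factor CEBPB by 0.86 (limma adjusted p = 0.000688). The list's median difference was 0.36 for A2ko, 0.56 for A8ko and 0.61 for C9ko, against 0.12, 0.09 and 0.11 for all genes.

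Collagens and the enzymes that modify them share a pathway with SERPINH1. Of 20 such genes, 17 passed the filter, and 15 rose in C9ko with 0 lower (12 after median-of-ratios scaling). With the deposited values, 22% of all genes were called higher and 7.42% lower. Prolyl hydroxylase P4HA2 rose by 1.22 (limma adjusted p = 6.14e-05), and the lysyl hydroxylases PLOD2 and PLOD3 by 1.03 (limma adjusted p = 0.000164) and 1.003 (limma adjusted p = 0.000107). The basement membrane collagen COL4A2 rose by 1.16 (limma adjusted p = 9.35e-05) and the prolyl hydroxylation cofactor CRTAP by 0.88 (limma adjusted p = 0.000148). COL4A2 gave 30.7 to 33.6 TPM in Control, 29.2 in A2ko, 60.1 in A8ko, with 69.7 and 76.6 in C9ko. Like SERPINH1, it was below Control in A2ko and above it in A8ko and C9ko. Of the 17 genes, however, 8 were above every Control library in every knockout library, as were 17% of all genes. Among the 8 were P4HA2, PLOD2 and PLOD3 with A2ko differences of 0.51, 0.57 and 0.41, where SERPINH1 was at -0.35. The list's median was 0.15 for A2ko, 0.40 for A8ko and 0.70 for C9ko.

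SERPINH1 is also a known target of heat shock factor 1. All 11 heat shock genes passed the filter, and 0 rose while 2 fell in C9ko, HSPB1 by 0.58 (limma adjusted p = 0.00571) and DNAJB1 by 0.46 (limma adjusted p = 0.00888). Beside this, 22% of all genes were called higher and 7.42% lower. The median difference of the 11 was -0.44 for A2ko, 0.21 for A8ko and 0.13 for C9ko.

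**Figure D5:**
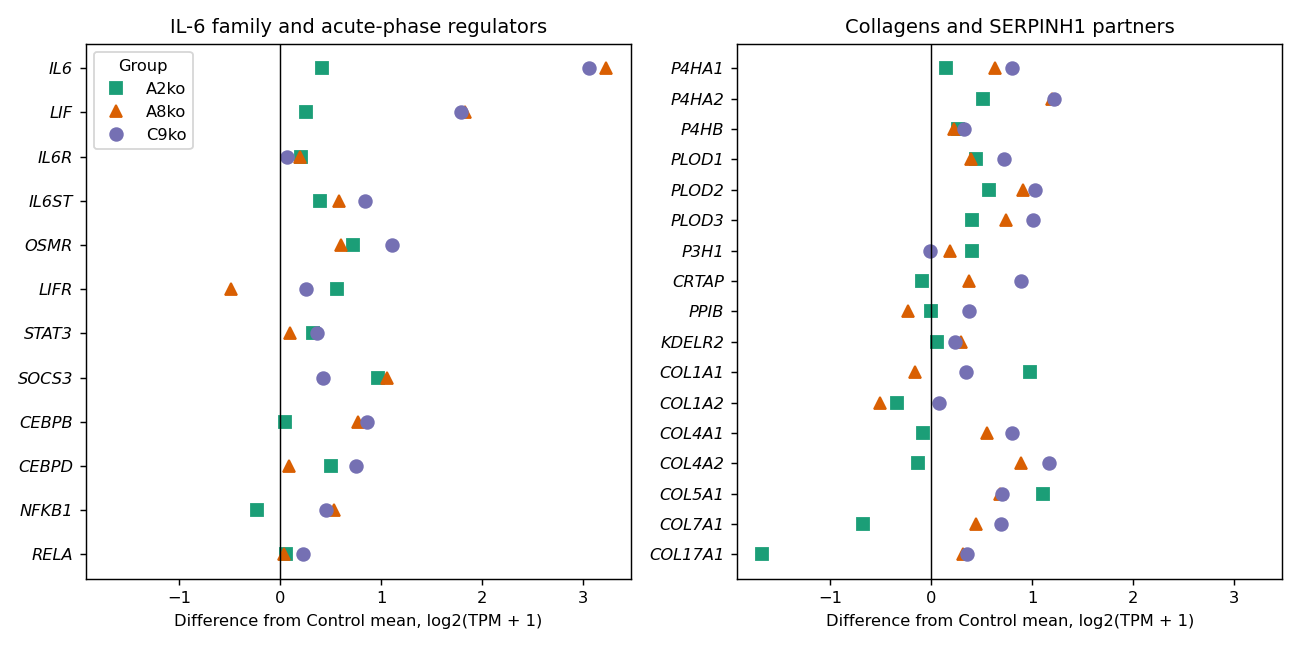
Difference from the Control mean on the log2(TPM + 1) scale (x axis) for the genes of the IL-6 and acute-phase list and of the collagen list that passed the filter, by knockout (A2ko and A8ko 1 library each, C9ko mean of 2). IL6 and LIF are near Control in A2ko and lie far to the right in A8ko and C9ko, and most collagen genes lie to the right of 0 in C9ko.

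The genes with the pattern most like SERPINA1 across the 7 libraries were sought among 10968 genes with a mean of at least 5 TPM. They were ABCB10, a mitochondrial transporter (Pearson's r = 0.996), MELTF-AS1 (0.993), SLC46A1, the proton-coupled folate transporter (0.992), ISYNA1, which makes inositol phosphate (0.990), and PTPRU, a receptor phosphatase (0.988). By their SERPINA1 level the libraries fall into a Control and a knockout cluster, so these values describe that split and carry no p-value. The size of the difference was smaller than for SERPINA1. ISYNA1, for example, gave 56.4 to 63.2 TPM in Control, 107.9 in A2ko, 108.3 in A8ko, with 103.0 and 112.5 in C9ko, a difference of 0.82, 0.83 and 0.82 log2 units in A2ko, A8ko and C9ko.

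Genes beside the members were counted within 500000 bases. Around SERPINA1, 8 of 31 annotated neighbours passed the filter, of which 5 were higher and 1, SERPINA3, was lower in C9ko by the limma test. Among all genes, 22% were called higher and 7.42% lower. The nearest of the 8 neighbours, PPP4R4, a phosphatase subunit 97012 bases away, gave 5.85, 6.15 and 6.31 TPM in Control, 6.67 in A2ko, 14.2 in A8ko, with 10.2 and 10.3 in C9ko. It rose in C9ko (limma adjusted p = 0.00122) and, like SERPINA1, was above every Control library in every knockout library. In A2ko, however, its difference from Control was only 0.11 log2 units. Around the chromosome 18 members, 8 of 21 neighbours passed the filter, with 0 higher and 1 lower in C9ko. The nearest of these outside the cluster, VPS4B, 54278 bases away, stayed between 38.7 and 46.7 TPM in all libraries.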

How the data were processed

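Bulk polyA RNA of 9 CAL27 samples was measured in dUTP libraries, per the labels' protocols. The deposited values are TPM per Ensembl gene, computed by the authors on hg38, per the submitters' processing notes. The aligner, quantifier and annotation release are not given in the sources used here, and TPM keeps no depth. Identical tables were counted once (7 libraries). Symbols were found for 61463 of 78894 identifiers, gene positions came from GENCODE on GRCh38, and promoters from RefSeq (GRCh38.p14). Values were analysed as log2(TPM + 1). Genes with at least 1 TPM in at least 2 libraries (17100) were fitted with limma 3.58.1 in R 4.3.3 (lmFit over 4 groups, C9ko against Control, eBayes with trend), called at a Benjamini-Hochberg adjusted p-value under 0.05. A2ko and A8ko were described by values outside the Control range and at least 1 log2 unit from its mean. Named genes were all members, up to 5 called genes per list with the largest C9ko difference, any other serpin beyond the fold in all knockouts, the 5 most similar to SERPINA1, and the nearest neighbours. Members and lists were chosen with earlier results of these data known. Alternatives were the pseudocount (0.1), filters, scalings, left-out replicates, fewer samples in the fit, a replicate block, and sums of overlapping or near-identical genes. The fit was tested on simulated data with independent noise and few changed genes. That is a simpler case than these data, so it does not measure the error of the calls. Of the list of other serpins, 1 gene is not reported here.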

Additional observations from a re-analysis of the deposited data

Results flagged for a closer look

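SERPINA3, SERPINB3, SERPINB4 and SERPINH1 lay outside the Control range on opposite sides in different knockouts, and these differences between knockouts were not tested because A2ko and A8ko have 1 library each. For SERPINA3 the gap between A2ko (higher than Control) and A8ko (lower) was 4.83 on the log2(TPM + 1) scale. For SERPINB3 it was 1.94 between A2ko and A8ko, and for SERPINB4 it was 1.69 between C9ko and A8ko. For SERPINH1 it was 0.99 between C9ko and A2ko.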

How the results depend on the processing

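Of the 6 members called in C9ko, 5 kept their call and direction in all 12 alternative fits, and SERPINH1 in 11, all but the one without a filter on low values. SERPINB3 and SERPINB7 were called in 0. The count of all genes called in C9ko depended more on the setting. It was 5038, and 3248 with the replicate number as a replicate block in a fit of Control and C9ko alone, which left the members' 6 calls as they were. In that fit Control replicate 3 has no C9ko partner and adds nothing to the difference. Leaving that library out without a block gave 3874 calls, so the lower count does not reflect the block alone. Same-numbered samples of Control and C9ko did not deviate together (Pearson's r = -0.0372 over genes, replicate 1 minus 2). As only these replicates enter, this cannot settle whether the numbers mark a batch or a pairing. Leaving out 1 library gave 3301 to 4174 calls, lowest without C9ko replicate 2 (3301), and fewer samples enter such fits. In A2ko, 867 genes were beyond 1 log2 unit, 1813 with a pseudocount of 0.1 and 380 with a mean of at least 5 TPM. In A8ko these counts were 809, 1689 and 412. Of 144 alternative values of the members in A2ko and A8ko, 117 moved by less than the Control spread, 27 by more, and none reversed. The filter settings only choose which genes are tested and cannot change a member's difference. Their values are among the 117 by construction, so that count overstates the stability. SERPINA3 in A8ko went from -3.16 to -6.30 with a pseudocount of 0.1, and SERPINB13 in A2ko from -0.15 to -0.31 after median-of-ratios scaling. A2ko and A8ko lack replicates, the depth is unknown, and low members such as SERPINA1 are the least precise.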
